A study of Mus musculus with 36 samples.

Results

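H3K27me3 was compared between cultured neural progenitors with and without the CxxC zinc finger of KDM2B. The comparison used 4 ChIP-seq libraries, chosen by their labels as H3K27me3 libraries of P0 neurospheres, out of 36 samples in the series and 24 with island files. The mice were P0, and neurospheres are floating cultures of neural progenitors, here grown from the hippocampus with FGF2 and EGF. The 2 Ctrl libraries came from Kdm2bfl/+ or Kdm2bfl/fl cells, and the 2 cKO libraries from Kdm2bEmx1-delta-CxxC cells, in which Emx1-Cre removed the floxed exon encoding the zinc finger. Emx1-Cre acts in the dorsal forebrain lineage, so other cells carried over into a culture would keep the exon. By RNA-seq of hippocampal neurospheres, the study reported that this exon was deleted in cKO. In P0 neocortex of this cross the study's immunoblots showed truncated long and short forms of KDM2B, so the rest of the protein can still be made. The labels give neither the sex of the mice nor whether a culture pooled animals, and they do not say that the replicates were separate cultures. The p-values therefore measure only the spread between these libraries, which may be technical.

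H3K27me3 is the histone mark written by Polycomb repressive complex 2, and it lies over promoters of silent developmental genes. KDM2B binds unmethylated CpG islands through its CxxC zinc finger and brings a variant Polycomb repressive complex 1 there, which ubiquitinates histone H2A (H2AK119ub1). Polycomb repressive complex 2 recognises that ubiquitin mark. In neural progenitors H3K27me3 covers Hox clusters, genes of other lineages and neuronal genes not yet in use.

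Promoters differ in how many CG dinucleotides, the letters read by the zinc finger, they hold. The 250 bases before the RefSeq start are shown for 5 genes on which the results below turn, with CG in capitals. They include an island that was smaller in cKO (Lef1), a promoter left uncovered in cKO replicate 2 (Gbx2), a pair that lost their islands (Gli2 and Wnt5b) and a promoter that gained islands (Neurod6). All are from RefSeq on GRCm38.p6 and read along the strand of the gene.
Lef1: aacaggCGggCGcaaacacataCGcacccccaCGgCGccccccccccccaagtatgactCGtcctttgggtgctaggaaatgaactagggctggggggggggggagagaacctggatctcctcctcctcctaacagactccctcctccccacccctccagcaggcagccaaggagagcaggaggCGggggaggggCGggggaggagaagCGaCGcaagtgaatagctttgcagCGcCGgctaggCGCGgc
Gbx2: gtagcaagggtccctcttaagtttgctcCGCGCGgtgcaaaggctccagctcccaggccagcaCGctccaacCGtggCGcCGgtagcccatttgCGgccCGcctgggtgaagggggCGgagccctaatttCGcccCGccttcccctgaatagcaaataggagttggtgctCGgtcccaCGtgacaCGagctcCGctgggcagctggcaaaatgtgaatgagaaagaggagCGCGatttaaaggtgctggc
Gli2: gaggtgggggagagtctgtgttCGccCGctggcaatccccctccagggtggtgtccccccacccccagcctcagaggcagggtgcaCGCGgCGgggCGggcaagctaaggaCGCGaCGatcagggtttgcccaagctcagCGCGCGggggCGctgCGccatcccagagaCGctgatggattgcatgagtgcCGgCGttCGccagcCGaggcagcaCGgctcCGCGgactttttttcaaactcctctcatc
Wnt5b: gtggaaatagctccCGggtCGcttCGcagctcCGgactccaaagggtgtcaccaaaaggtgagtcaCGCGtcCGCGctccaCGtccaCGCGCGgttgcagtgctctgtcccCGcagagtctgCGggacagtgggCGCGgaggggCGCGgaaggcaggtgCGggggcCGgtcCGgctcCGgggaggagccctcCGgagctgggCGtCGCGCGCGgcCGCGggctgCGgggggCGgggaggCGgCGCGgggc
Neurod6: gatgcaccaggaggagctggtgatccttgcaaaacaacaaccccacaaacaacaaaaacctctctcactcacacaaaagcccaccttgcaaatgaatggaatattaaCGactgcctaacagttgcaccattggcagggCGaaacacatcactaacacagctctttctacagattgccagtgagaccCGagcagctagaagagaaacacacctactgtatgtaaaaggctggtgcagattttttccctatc
These lie at chr3:131110073-131110322 (plus strand) for Lef1, chr1:89931177-89931426 (minus) for Gbx2, chr1:119053620-119053869 (minus) for Gli2, chr6:119544348-119544597 (minus) for Wnt5b and chr6:55681264-55681513 (minus) for Neurod6. Lef1 held 14 CG dinucleotides, Gbx2 18, Gli2 22, Wnt5b 35 and Neurod6 3. CG reads the same on both strands. Among all 20807 autosomal protein-coding promoters, 92.6% held at least 1 CG in the 250 bases before the GENCODE start, with a median of 8 (quartiles 3 and 18). A CG is a description of the sequence and not a binding site.

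Each library is a list of islands, the stretches that the SICER peak caller found enriched, each with a read count. In cKO the median island was wider and the islands less dense than in Ctrl. Autosomal islands numbered 42884 and 53055 in the Ctrl libraries, against 53617 and 29588 in those of cKO, so the groups overlapped (exact permutation test, two-sided p = 1). Median island width stood at 3.0 and 2.4 kb in the Ctrl libraries, against 3.6 and 5.4 kb in those of cKO. Covered length came to 245 and 239 Mb (Ctrl) against 304 and 261 Mb (cKO), or 242 ± 4.16 against 283 ± 30.5 Mb (SD, n = 2 each). Counts per kb in islands were 61.0 and 52.9 (Ctrl) against 43.2 and 42.6 (cKO), or 57.0 ± 5.75 against 42.9 ± 0.380 (SD, n = 2 each). Median width and covered length were thus higher in both cKO libraries, and density was lower, without overlap. The width above which islands hold 50% of the covered length overlapped, at 10.4 and 7.8 kb (Ctrl) against 7.4 and 12 kb (cKO). With islands of at least 2 kb the median widths overlapped too, and their log2 ratio was 0.23 in place of 0.74 (exact permutation p = 1). Over all islands, the exact permutation test gave p = 0.333 for median width, covered length and density. That is the smallest it can give with 2 libraries against 2. Density also depends on how many reads each library had, which the files do not give. The counts inside autosomal islands were 14967138 and 12663511 for Ctrl, with 13126175 and 11126710 for cKO, so the 2 groups overlapped in that total.

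**Figure D1:**
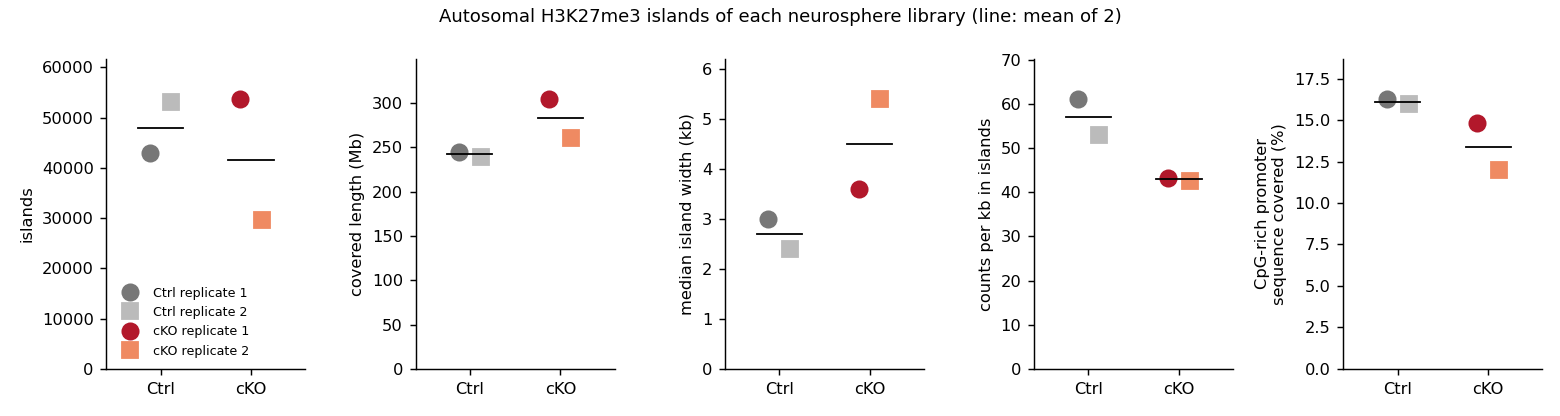
Autosomal islands of each library, from left to right the number of islands, covered length (Mb), median island width (kb), counts per kb and the percent of CpG-rich promoter sequence covered; points are libraries and lines are means of 2. The number of islands overlaps between Ctrl and cKO, and the other measures do not.

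The cKO replicate 2 library stood apart in its narrow islands. Islands under 2 kb numbered 12773 and 20578 in Ctrl, 7191 in cKO replicate 1 and 663 in cKO replicate 2. Islands of 5 to 10 kb numbered 7300 and 7789 in Ctrl and 11836 and 10130 in cKO. Fewer narrow islands and more islands of 5 to 10 kb were therefore seen in both cKO libraries. On chromosome X, left out of the main comparisons, the cKO libraries stood on either side of the Ctrl libraries, at 1.32 and 60.2 Mb covered against 37.4 and 28.5 Mb. Without cKO replicate 2 the islands were more numerous in cKO, by 0.16 on the log2 scale. Fewer marked cells and less mark per cell cannot be told apart in these bulk cultures.

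At 6 of 10 markers of neural progenitors, the labelled cell type, the promoter had no island in any library, a share close to that of all promoters (12641 of 20807). These were Sox2, Sox9, Vim, Fabp7, Notch1 and Slc1a3. Msi1 kept its islands, while Hes1, Nes and Pax6 were covered in some libraries. Among dorsal forebrain markers Emx2 had none, Lhx2 had an island in Ctrl replicate 1 alone, and Emx1 was covered throughout. Among 11 markers of neurons, glia, endothelium and microglia, 5 had no island in any library and 4 had islands in some, while Rbfox3 was lost and Cx3cr1, a microglial receptor, was kept. Their part in the results below was not tested.

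A promoter was taken as 2 kb to each side of the start of a protein-coding gene. It was called kept when an island touched it in all 4 libraries, lost when this held in both Ctrl libraries and neither cKO library, and gained in the reverse case. Of 20807 promoters, 3376 were kept, 329 lost, 234 gained and 12641 never covered, and 4227 had other patterns. The lost ones were 6.92% of the 4757 with an island in both Ctrl libraries, and the gained ones 1.67% of the 14033 with none in Ctrl. Promoters touched in each library numbered 5681 and 5850 in Ctrl and 6232 and 4816 in cKO, so these overlapped. The replicates of cKO differed: 852 promoters marked in both Ctrl libraries were marked in cKO replicate 1 alone, and 200 in cKO replicate 2 alone. Without cKO replicate 1, 1181 were lost and 615 gained, and without cKO replicate 2, 529 were lost and 1011 gained.

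Loss was more frequent at CpG-rich promoters and gain at the others, as shares with no test between them. CpG-rich means a GC content over 50% and a CpG observed-over-expected ratio over 0.6 in 1 kb around the start, which held for 9511 promoters. Of CpG-rich promoters marked in both Ctrl libraries 9.75% were lost (188 of 1929), against 4.99% of the others (141 of 2828). Gains went the other way, with 0.809% of CpG-rich promoters (55 of 6798) and 2.47% of the others (179 of 7235). The median number of CG in the 250 bases before the start was 13 at lost, 7 at kept, 4 at gained and 10 at never covered promoters. CpG-rich promoter sequence was covered to 16.2% and 16% in Ctrl, and to 14.8% and 12% in cKO. The groups did not overlap, and the difference of -2.73 percentage points had the smallest p the exact permutation test allows, 0.333.

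Lost promoters were mostly covered only in part in Ctrl, and where they lay within an island was not tested. Their Ctrl islands covered a median of 35.8% of the promoter and were 5.4 kb wide at 44.9 counts per kb, against 93.3%, 12.05 kb and 58.3 counts per kb at kept promoters. Of the 329 lost promoters, 226 (68.7%) still had a cKO island within 5 kb, beside 16.2% of those never covered. Of the 234 gained ones, 148 (63.2%) had a Ctrl island within 5 kb, beside 16.5% of those never covered. At the gained promoters cKO islands covered a median of 47.9% of the promoter. Several of the densest losses were slight overlaps with wide islands. The promoter of Trappc2l, a trafficking subunit, was covered to 11% and 1.0% in Ctrl by an island of 187 and 186 kb, and that of Mars, a tRNA synthetase, to 4.65% in both.

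Some promoters lost broad coverage. Fgf9, a growth factor, had islands of 11.2 and 9.6 kb in Ctrl, and the nearest cKO island lay 12.7 kb away. Shh, the Hedgehog ligand, was covered fully by islands of 16.8 and 21.0 kb in Ctrl and by none in cKO, where the nearest island was 0.7 kb off. Gli2, a transcription factor of Hedgehog signalling, lost islands of 6.4 and 7.4 kb. Rbfox3, which encodes the neuronal splicing factor NeuN, lost promoter islands of 62.0 and 55.6 kb. A cKO island remained 0.6 kb away, and its region, shared with other genes, still had 137.4 and 100.8 kb called in cKO beside 156.2 and 151.0 kb in Ctrl. Six5, a homeobox gene, lost islands of 8.8 and 9.6 kb. In all of these both Ctrl libraries stood above both cKO libraries by construction of the call.

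**Figure D2:**
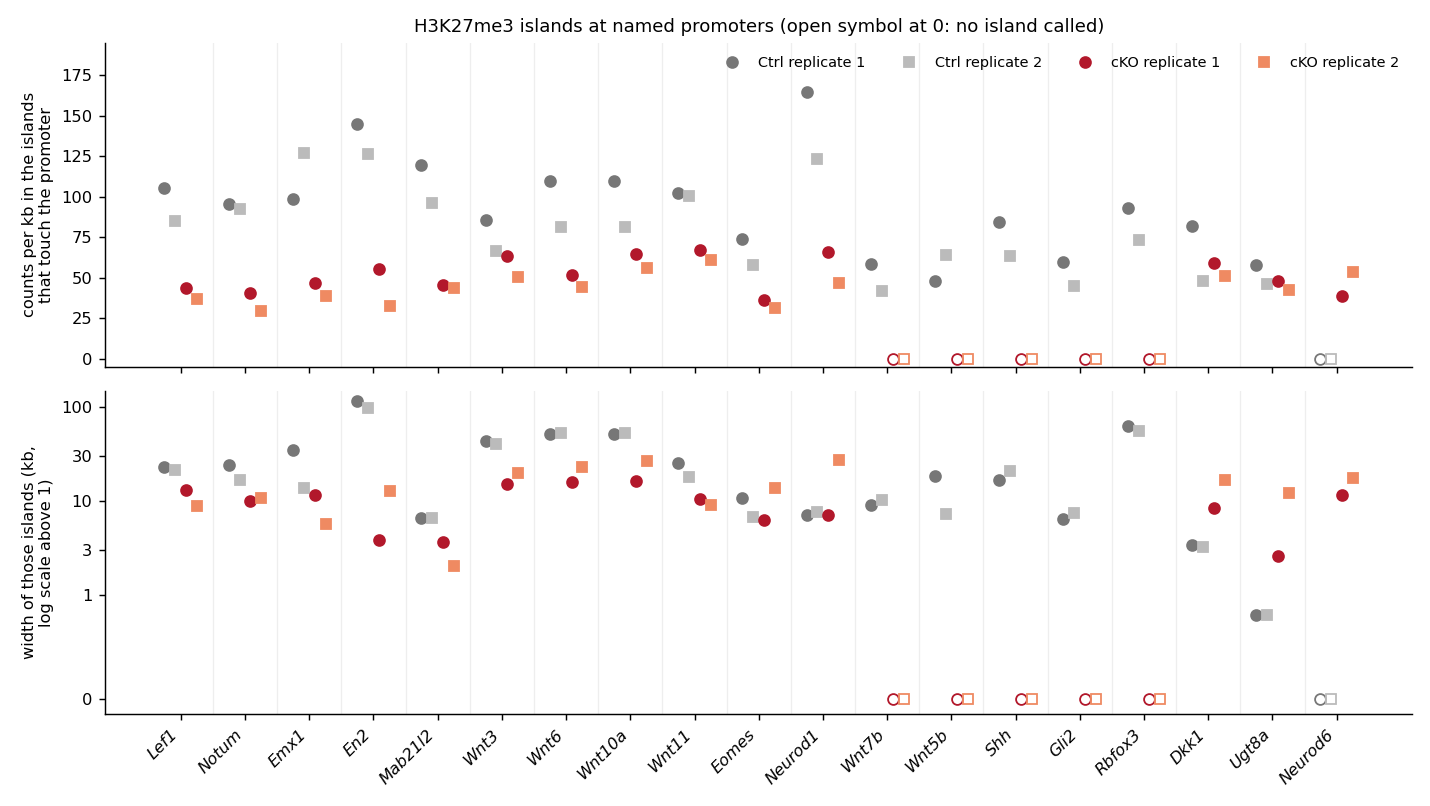
Counts per kb (upper) and width in kb (lower, log scale above 1) of the islands touching 19 named promoters in the 4 libraries; open symbols at 0 mark no island. Lef1, Notum and Emx1 lie lower in both cKO libraries in both panels, Shh and Gli2 have no cKO island, and Neurod6 has none in Ctrl.

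The Wnt pathway is the signalling route through Frizzled receptors to beta-catenin and LEF/TCF factors. The study named 9 promoters of this and the neurogenic programme. It named Lef1 on these neurosphere samples, so its direction is not independent evidence, and the other 8 on P0 hippocampal tissue. Lef1, the nuclear factor at the end of the pathway, carried islands of 23.2 and 21.2 kb in the Ctrl libraries, which measured 13 and 8.8 kb in those of cKO. Counts in its region (chr3:131098801-131122200) were 2439 and 1871 (Ctrl) against 565 and 326 (cKO). The groups did not overlap, and the log2 fold change after TMM scaling was -2.25 ± 0.34 (SE), with an adjusted p of 0.149 by edgeR's quasi-likelihood test. That is the smallest adjusted p in the fit, so no region passed 0.05. Lef1 counts per kb were also lower, at 105 and 85.2 (Ctrl) against 43.5 and 37.0 (cKO).

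Among Wnt ligands the islands touching the promoter were narrower, while the called length of the whole regions differed less. Wnt3 had islands of 43.0 and 40.8 kb in the Ctrl libraries, against 15 and 20.0 kb in those of cKO, and the called length of its region overlapped at 43.0, 50, 47.6 and 37.4 kb in the order Ctrl 1, Ctrl 2, cKO 1 and cKO 2. Wnt6 and Wnt10a share a region and, in Ctrl, an island of 52.0 and 52.2 kb, which in cKO was 15.8 and 23.2 kb at Wnt6 and 16.4 and 26.6 kb at Wnt10a. Called length there was 69.0, 69.8, 65.0 and 59.2 kb in the same order, and region counts were 6598, 4902, 3344 and 2852, with a log2 fold change of -0.88 ± 0.18 (edgeR adjusted p = 0.149). Wnt7b lost islands of 9.0 and 10.2 kb, with a cKO island 0.9 kb away, and Wnt5b lost islands of 18.4 and 7.2 kb, with the nearest cKO island 16.9 kb away. In all, 14 of 19 ligand promoters were kept, 2 were lost and none was gained. Those 2 were 11.8% of the 17 marked in both Ctrl libraries, beside 6.92% over all promoters. Islands were narrower in both cKO libraries at 11 of the 14 and wider at 1 (Wnt7a), beside 18.4% narrower and 28.9% wider among all kept promoters. The ligand islands were wide in Ctrl, with medians of 42.2 and 43 kb. Among all 755 kept promoters with Ctrl islands of 20 to 50 kb, 241 were narrower and 102 wider. For the ligands, the median log2 difference was -1.04 for the width of the islands and -0.16 for the called length of their regions. Their regions, 11 in number because neighbours share them, had a median log2 fold change of -0.67, against -0.29 over the 2535 regions behind kept promoters. At an unadjusted p under 0.05 in edgeR, 7 of the 11 were lower and 0 higher, against 21.0% lower and 3.43% higher of those 2535. In the class of 20 to 50 kb, 224 of 547 regions were lower and 1 higher.

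Other roles in the pathway were mixed. Of 18 Wnt receptor promoters 4 were kept, and 9 had no island in any library, among them Fzd1, Fzd3, Lrp5 and Lrp6. Of 12 antagonists 7 were kept, with 2 narrower and 3 wider. Notum, a secreted enzyme that inactivates Wnt proteins, went from 23.8 and 16.6 kb to 10.0 and 10.6 kb, with counts of 2266, 1559, 585 and 444 and a log2 fold change of -1.87 ± 0.26. Dkk1, a secreted inhibitor of the LRP co-receptors, went the other way, from 3.4 and 3.2 kb to 8.4 and 16.8 kb, with counts of 361, 154, 791 and 857 and +1.74 ± 0.36. Neither overlapped between groups, and both had an edgeR adjusted p of 0.149. Sfrp2, another secreted inhibitor, was covered to 27% and 2.0% in Ctrl, and to 7.0% and 0% in cKO, which overlap. Of 13 effectors and modulators 7 were kept, and 4 of their 7 regions were lower and 0 higher at an unadjusted p under 0.05. The shares over all 2535 regions behind kept promoters were 21.0% and 3.43%.

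Factors of neurogenesis act in turn in radial glia, intermediate progenitors and neurons. Of 26 promoters 17 were kept and 1 (Neurod6) was gained. Neurod6 was 1 of 6 with no island in Ctrl, beside a gain of 1.67% over all promoters. Their 17 regions had a median log2 fold change of -0.53, with 10 lower and 0 higher at an unadjusted p under 0.05 in edgeR. Over all 2535 regions behind kept promoters the shares were 21.0% and 3.43%. The islands at these promoters had Ctrl medians of 20 and 14.8 kb. Among kept promoters with Ctrl islands of 10 to 20 and 20 to 50 kb, 159 of 750 and 224 of 547 regions were lower. Neurog2, a proneural factor, had region counts of 5640 and 4015 in Ctrl and 1990 and 1761 in cKO (-1.34 ± 0.18, adjusted p = 0.149). Eomes, the intermediate progenitor factor, had 1592, 1059, 802 and 422 (-1.07 ± 0.38, adjusted p = 0.227), while its promoter islands overlapped in width at 10.8, 6.8, 6.2 and 13.6 kb. Neurod1, a neuronal differentiation factor, had 1605, 1261, 721 and 1281 (-0.53 ± 0.29), which overlap, and its promoter islands of 7.0, 7.6, 7.0 and 27.4 kb held 164 and 123 counts per kb in Ctrl but 66.0 and 46.8 in the cKO libraries. Pax6 was covered in both Ctrl libraries and cKO replicate 1 and not in cKO replicate 2.

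Hox genes, which pattern the body axis, kept their islands at all 39 promoters. The islands were wider in both cKO libraries at 30 of 39 and narrower at 0, with median widths of 110 and 102 kb (Ctrl) against 218 and 285 kb (cKO). Density went from 205 and 196 to 123 and 137 counts per kb. The 39 promoters lie in 4 regions and are not separate observations. Called length in the regions, in the order Ctrl 1, Ctrl 2, cKO 1 and cKO 2, was 245, 233, 275 and 284.8 kb at Hoxa and 221.2, 208.8, 241 and 246 kb at Hoxd, higher in cKO without overlap. It was 673.6, 639.8, 679.8 and 691.4 kb at Hoxb, also without overlap but by less (log2 0.06 against 0.23 at Hoxa), and 397.6, 384.4, 395 and 400.2 kb at Hoxc, which overlap. The log2 fold changes in counts, from -0.22 at Hoxb to -0.15 at Hoxd, change sign without TMM scaling, and none had an unadjusted p under 0.05.

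The other homeobox genes held islands more often than most promoters, at 88 to 91 of 96 in Ctrl and 82 to 90 in cKO. In all, 82 were kept, 14 with narrower and 25 with wider islands in both cKO libraries, shares near the 18.4% and 28.9% of all kept promoters. Their 75 regions had a median of -0.40, with 40 lower and 2 higher at an unadjusted p under 0.05, beside 21.0% and 3.43% of all 2535 regions behind kept promoters. The homeobox islands were wide, with medians of 47.2 and 37.7 kb in Ctrl. Among all kept promoters with Ctrl islands of 20 to 50 kb, 224 of 547 regions were lower and 1 higher, with a median of -0.49. En2, a midbrain and hindbrain factor, had region counts of 16993 and 13681 in Ctrl and 3847 and 1174 in cKO (-2.58 ± 0.58, adjusted p = 0.161), and promoter islands of 117.2 and 96.6 kb against 3.8 and 12.6 kb. Emx1, the dorsal forebrain factor, had islands of 34.6, 13.8, 11.4 and 5.6 kb and a fold change of -1.64 ± 0.33. Lhx9 had wider islands, at 16.2 kb in both Ctrl libraries and 22.8 and 46.8 kb in cKO (+0.88 ± 0.24, adjusted p = 0.177). Among 41 Forkhead promoters 29 were kept, with 10 of 27 regions lower and 1 higher, beside the same 21.0% and 3.43%. Ion channels (43 of 126 kept) had 14 of 41 regions lower and 0 higher. Transmitter receptors (15 of 48 kept) had 4 of 14 lower and 0 higher, near the 21.0% and 3.43% of all 2535 regions. Of 24 BMP and Hedgehog promoters 10 were kept and 2 lost. Those 2 were 12.5% of the 16 marked in both Ctrl libraries, beside 6.92% over all promoters. Gli3, the Hedgehog repressor, had region counts of 830, 481, 159 and 96 (-2.31 ± 0.42, edgeR adjusted p = 0.149).

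Gene families outside development were set beside the shares over all promoters. Olfactory receptors, the odorant receptors of the nose, had 70 of 1128 promoters kept, 6 lost and 6 gained. The lost ones were 6.59% of those marked in both Ctrl libraries, near the 6.92% over all promoters. The gained ones were 0.610% of those with none in Ctrl, beside 1.67% over all promoters. Of the 70, 1 was narrower and 30 wider, beside 18.4% and 28.9% of all kept promoters. The olfactory islands were narrow, with Ctrl medians of 5.9 and 4.4 kb. Among all kept promoters, 364 of 597 with Ctrl islands under 5 kb were wider, and 279 of 813 with 5 to 10 kb. The 54 olfactory regions had a median of 0.30, with 0 lower and 3 higher at an unadjusted p under 0.05. Over all 2535 regions behind kept promoters the shares were 21.0% and 3.43%. Zinc finger genes named Zfp had 41 of 385 kept, 11 lost and 4 gained, a loss of 15.9% of those marked in both Ctrl libraries beside 6.92% over all promoters. Islands at kept Zfp promoters were narrow, with Ctrl medians of 4.8 and 3.6 kb, and these shares of loss are not matched for width. Over all promoters the median Ctrl island was 5.4 kb at lost and 12.05 kb at kept ones. Keratin genes had 41 of 110 kept, 1 narrower and 10 wider, both shares below those of all kept promoters. Ribosomal protein promoters were touched in 16 and 17 of 75 cases in Ctrl and 12 and 9 in cKO, with 6 kept and 2 lost. Those 2 were 14.3% of the 14 marked in both Ctrl libraries, beside 6.92% over all promoters. Polycomb genes had 4 of 18 kept. Kdm2b itself had no island in any library.

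Most promoters of the Gata, Pax and Tbx families, which specify organs and cell types, kept their islands. Kept promoters were 5 of 5 Gata, 7 of 9 Pax, 10 of 12 Tbx, 4 of 18 Sox and 2 of 7 CDK inhibitor genes, with 0 lost and 0 gained. Regions lower at an unadjusted p under 0.05 in edgeR numbered 4 of 5 for Gata, 4 of 7 for Pax and 2 of 10 for Tbx genes, with 0 higher, and the Tbx share is at the background of 21.0%. Tbx1, a factor of pharyngeal development, had islands of 53.0 and 52.0 kb in Ctrl and a log2 fold change of -1.0 ± 0.28, while Pax1 stood at -0.04 ± 0.17. Of 20 Fgf ligands 6 were kept, 1 lost (Fgf9, of 10 marked in both Ctrl libraries) and 1 gained (Fgf7, of 7 marked in neither). Islands were narrower in both cKO libraries at 4 of the 6, beside 18.4% of all kept promoters. Behind the 6 lay 4 tested regions, and the Ctrl islands were wide, with medians of 84.8 and 82.1 kb. Among all kept promoters with Ctrl islands of 50 kb or more, 108 of 310 were narrower. Clustered protocadherins had 6 of 57 kept and 1 lost, or 3.45% of the 29 marked in both Ctrl libraries. Vomeronasal receptors had 4 of 327 kept and 1 gained, or 0.328% of the 305 with none in Ctrl. Serpin and defensin genes had 15 of 126 kept, 3 lost and 3 gained, or 15.8% of 19 and 3.45% of 87. The shares over all promoters were 6.92% lost and 1.67% gained. Without TMM scaling the median over all 2535 regions behind kept promoters was -0.04. Those of Wnt ligands (-0.42), neurogenesis factors (-0.26), other homeobox genes (-0.14) and ion channels (-0.14) stayed negative, olfactory receptors (0.57) stayed positive, and Hox (0.08), Sox (0.20) and Zfp genes (0.11) turned positive.

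**Figure D3:**
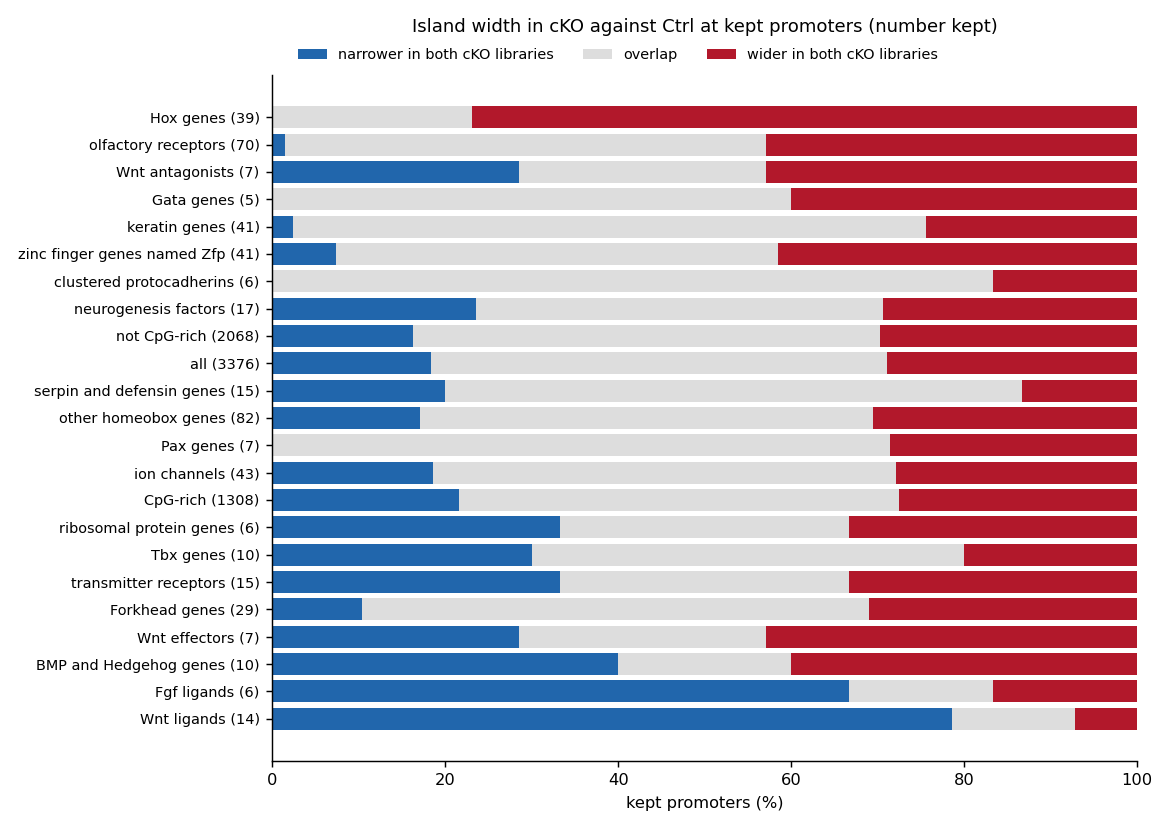
Percent of kept promoters in each gene list (number kept in parentheses) whose islands were narrower in both cKO libraries than in both Ctrl libraries, wider in both, or overlapping, ordered by median width change. Wnt ligands had 11 of 14 narrower and Hox genes 30 of 39 wider, beside 620 narrower and 974 wider of all 3376. The lists are not matched for island width in Ctrl.

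The difference in width went with the width of the island in Ctrl. Among 597 kept promoters with Ctrl islands under 5 kb, 6 were narrower and 364 wider in both cKO libraries. Among 310 with Ctrl islands of 50 kb or more, 108 were narrower and 57 wider. The median region fold change ran from 0.21 in the narrowest class through -0.18, -0.38 and -0.49 to -0.60 in the widest. Regions lower at an unadjusted p under 0.05 in edgeR followed the same order. They numbered 10 of 557, 65 of 725, 159 of 750, 224 of 547 and 123 of 162. The share of 21.0% over all 2535 regions is thus not matched for width to lists with wide Ctrl islands. Examples are Wnt ligands, other homeobox, Gata and Pax genes. The width classes were set with the Ctrl values of the same contrast and are a description only. Before centring, density was lower in both cKO libraries at 2377 kept promoters and higher at 19. Density relative to each library's own median was lower in both cKO libraries at 838 kept promoters (24.8%) and higher at 808 (23.9%).

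Across the genome, 59823 regions were formed by joining the islands of the 4 libraries, of which 11129 had an island in every library, 2460 were lost (13.6% of those in both Ctrl libraries) and 2081 gained (11.4% of those in neither). Lost regions were narrow, with a median of 2.8 kb, gained ones 5.8 kb and kept ones 13.8 kb. CpG-rich promoter regions numbered 104 lost and 14 gained, and other promoter regions 87 and 109. Gene bodies had 705 lost and 567 gained, and intergenic regions 1564 and 1391. Losses were 4.55%, 3.85%, 17.1% and 16.7% of regions in both Ctrl libraries, in that order of classes. Gains were 8.14%, 14.2%, 10.3% and 11.8% of those in neither. The lost share was thus lower in both promoter classes than over all regions, but the classes are not matched for width. Kept regions had medians of 20.8 and 20.6 kb in the promoter classes, against 12.8 kb in gene bodies and 11.6 kb in intergenic sequence. By bases, 0.596 Mb of CpG-rich promoter sequence was covered in both Ctrl libraries and neither cKO library, and 0.132 Mb in the reverse pattern. Intergenic sequence had 8.45 Mb in the former pattern and 18.6 Mb in the latter. By bases, loss thus exceeded gain in CpG-rich promoters, and gain exceeded loss in intergenic sequence. By number of regions, intergenic losses exceeded gains.

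**Figure D4:**
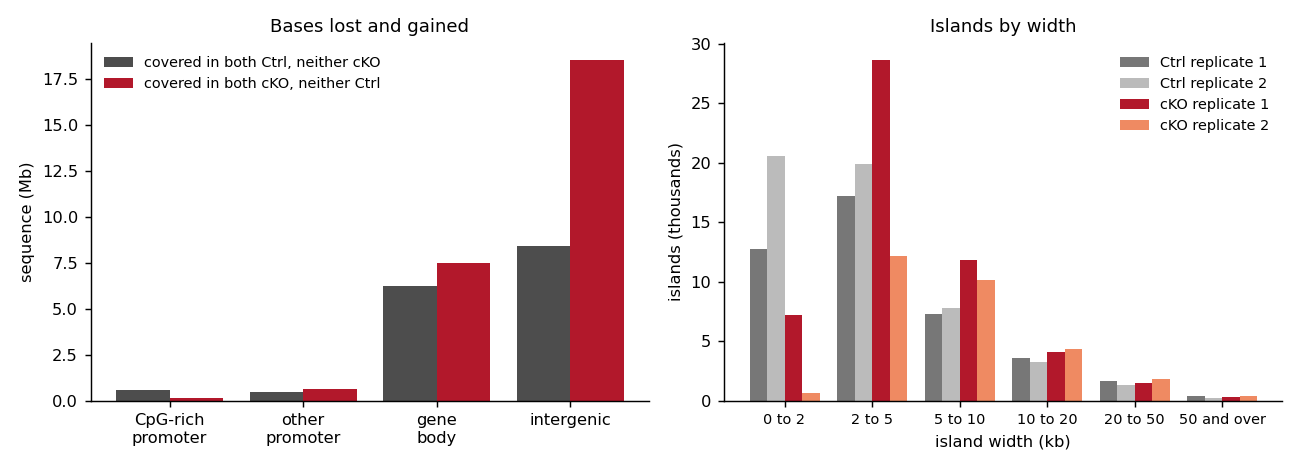
Left, sequence (Mb) covered in both libraries of 1 genotype and neither of the other, by annotation; right, islands by width class on an axis in units of 1000 in each library. Intergenic gains of 18.6 Mb exceed losses of 8.45 Mb, and cKO replicate 2 has 663 islands under 2 kb.

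In regions kept by all 4 libraries, median fold changes in counts were lowest in CpG-rich promoters and highest in intergenic regions. Counts were tested with edgeR's quasi-likelihood test, and 0 of 11129 regions (0%) passed an adjusted p of 0.05, while 1065 were lower (9.57%) and 1087 higher (9.77%) at an unadjusted p under 0.05. DESeq2's Wald test called 759. The even split rests on TMM scaling, and without it 490 were lower and 1789 higher at that unadjusted p. The median log2 fold change was -0.36 in CpG-rich promoter regions, -0.10 in other promoter regions, 0.08 in gene bodies and 0.20 in intergenic regions. Without TMM scaling the median of all regions moved up by 0.26 and that of other promoters turned positive, at 0.14, while CpG-rich promoters stayed negative at -0.10. At an unadjusted p under 0.05, 24.4% of CpG-rich promoter regions were lower and 3.19% higher, and 4.22% of intergenic regions were lower and 12.5% higher. Called length had 0 calls in limma, with 182 regions narrower (1.64%) and 1344 wider (12.1%) at an unadjusted p under 0.05, and a median of 0.0011 in CpG-rich promoter regions and 0.39 in intergenic regions.

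**Figure D5:**
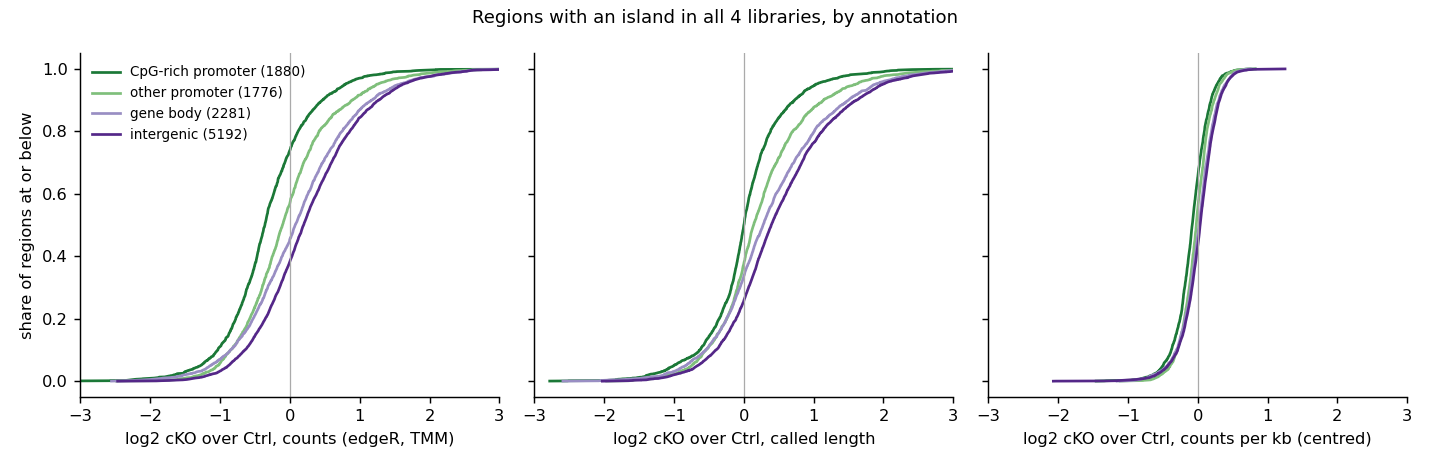
Cumulative share of the 11129 regions with an island in all 4 libraries against log2 cKO over Ctrl, for counts (TMM scaled), called length and centred counts per kb, by annotation; the axis ends at 3 on each side. In the counts panel CpG-rich promoters lie furthest to the left (median -0.36) and intergenic regions furthest to the right (0.20).

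Counts per kb, centred on each library, passed limma's adjusted p of 0.05 in 3 regions (0.0270%), all lower in cKO, while 827 were lower (7.43%) and 521 higher (4.68%) at an unadjusted p under 0.05. Without centring 638 passed, 634 lower and 4 higher, and 2507 were lower and 22 higher at that unadjusted p. The region of Gbx2 (chr1:89914001-89942600), a homeobox gene of the midbrain and hindbrain boundary, had 143.3 and 116.4 counts per kb (Ctrl) against 43.2 and 42.5 (cKO) (log2 -1.31 ± 0.11, adjusted p = 0.0414 by limma). Its promoter was covered to 100% in both Ctrl libraries and to 60.0% and 0% in cKO. The region of En2 (chr5:28106001-28224200) had 145 and 118.8 (Ctrl) against 41.0 and 37.9 (cKO) (-1.45 ± 0.11). The third, an intergenic region at chr8:129237401-129249000, was wider and thinner in cKO, with called lengths of 0.6, 1.2, 10.4 and 10.4 kb and counts that were higher, at 59 and 105 in Ctrl and 306 and 299 in cKO. All 3 calls were lost with the replicate number as a block and without limma's mean trend, where 0 regions passed.

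The lowest fold changes among promoter-bearing regions, none past an adjusted p of 0.05, were at genes of several kinds. Rtn4rl2, a Nogo receptor homologue, had counts of 2504 and 1897 in Ctrl and 154 and 257 in cKO (-3.42 ± 0.30, edgeR adjusted p = 0.149), and its promoter was lost. Adgra2, an adhesion receptor that takes part in Wnt7 signalling, had 977, 891, 158 and 158 (-2.57 ± 0.29), and its promoter was lost as well. Mab21l2, a developmental regulator of the eye, had 788, 634, 164 and 87 (-2.48 ± 0.44). Tbc1d16 and Ccdc40 share a region with 1975, 785, 282 and 65 (-2.88 ± 0.77), and Pgbd5, a transposase-derived gene, had 1410, 1138, 179 and 292 (-2.44 ± 0.30). In each of these both cKO libraries lay below both Ctrl libraries.

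The highest fold changes, again none past an adjusted p of 0.05, were mostly at regions with few Ctrl counts. Neurod6, a factor of maturing cortical and hippocampal neurons, had region counts of 449 and 259 in Ctrl and 2963 and 5134 in cKO (+3.54 ± 0.32, edgeR adjusted p = 0.149), and islands of 11.4 and 17.4 kb reached its promoter in cKO alone. Ugt8a, the enzyme that makes galactosylceramide of myelin, had 46, 37, 293 and 509 (+3.26 ± 0.46). Tfpi2 and Gngt1 share a region with 40, 42, 318 and 766, Scgb3a2 had 76, 67, 514 and 1136, and Pctp 55, 57, 314 and 714. Nr2f1, a nuclear receptor of cortical patterning, had 358, 94, 1108 and 2623, and its promoter was touched in cKO replicate 2 alone. Among gained promoters Cntn4, a neural adhesion molecule, had its nearest Ctrl island 1050.1 kb away and cKO islands of 3.0 and 10.6 kb. Nrn1, a neurite growth factor, had islands of 3.6 and 24.6 kb in cKO and the nearest Ctrl island 304.5 kb away. In all of these cKO replicate 2 gave the higher value of the 2 cKO libraries.

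The same promoters were read in other libraries of the series, which the grouping did not use. In neurospheres, H2AK119ub1 islands touched 74.6% and 43.8% of kept promoters in Ctrl and 58.9% and 71.7% in cKO, and 62.0%, 30.7%, 34.3% and 55.0% of lost ones. At gained promoters the values were 26.5%, 13.7%, 24.4% and 34.6%, and at promoters never covered 24.3%, 6.78%, 13% and 20.9%. In every one of the 4 libraries the order was kept, lost, gained and never covered, and Ctrl and cKO overlapped in each class. H3K36me2 islands, at 27.7%, 19.1%, 58.7% and 12.8% of lost promoters, were in each library more frequent there than at kept ones, with 9.30%, 7.76%, 35.9% and 2.25%. At promoters never covered they stood at 22.7%, 22.4%, 43.4% and 15.6%, and at gained ones at 23.5%, 23.9%, 35.5% and 5.56%, so lost promoters were closer to those never covered than to kept ones in each library. In hippocampal tissue H3K27me3 islands touched 57.6% and 44.7% of kept promoters in Ctrl and 52.5% and 76.9% in cKO, and 27.4%, 19.8%, 18.2% and 41.3% of lost ones. In tissue, too, Ctrl and cKO overlapped in both classes.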

How the data were processed

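ChIP-seq islands of 4 libraries were analysed, 2 Ctrl and 2 cKO. The deposited values are counts of reads per island, not normalized. Per the submitters' processing notes and the study's methods, the authors trimmed reads with cutadapt, aligned them to mm10 with Bowtie2 2.4.5, removed duplicates and called islands with SICER, each library by itself (window 200 bp, gap 600 bp and FDR 0.01 in the file names). The study's methods give an approximate sequencing depth aimed at for ChIP-seq libraries, but totals per library are not given in the sources used here, so their depth is known only as 11126710 to 14967138 counts in autosomal islands, and precision was limited by 2 libraries a group.

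Autosomal islands were joined into regions and set against GENCODE vM21 protein-coding starts (GRCm38, the assembly of mm10). Only regions called in all 4 libraries were tested, since the count outside an island is unknown. Counts used edgeR 4.0.16 (quasi-likelihood, TMM), called length and centred log2 counts per kb used limma 3.58.1 with a trend, and DESeq2 1.42.0 was an alternative, all with Benjamini-Hochberg adjustment, in R 4.3.3. The fits were tested on simulated data, where 4-fold changes at the fitted spread were called in 63.5% of 200 regions of 11129 (counts) and 2-fold changes in 1.5%. Sequences and intervals were handled in Python 3.11.15 with pysam 0.24.0. Alternatives covered scaling, filters, island width, promoter flank, covered length, chromosome X and left-out replicates.

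Genes were named by rule: the 9 promoters the study names, the 8 CpG-rich and 4 other lost and the 8 gained promoters of highest density, the 6 largest falls and rises of promoter-bearing regions at an unadjusted p under 0.05, and in each of 28 gene lists the lost and gained members and the kept members of lowest and highest fold change. Within the list of Wnt ligands, Wnt7a was named after its values were seen. The same holds for the receptors and markers named as having no island. Gbx2 was named as a region passing the density test. The members and lists were chosen with earlier results of these data known, and the name pattern for homeobox genes was corrected after it was seen to match other genes. Islands of H2AK119ub1 and H3K36me2 from hippocampus were not used here, and a few genes that the rule names are not reported here.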

Additional observations from a re-analysis of the deposited data

Results flagged for a closer look

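Islands on chromosome X, which the autosomal comparisons leave out, differed between the cKO libraries. They covered 37.4 and 28.5 Mb in Ctrl, 1.32 Mb in cKO replicate 1 and 60.2 Mb in cKO replicate 2. The islands numbered 12753 and 12785 in Ctrl, 391 in cKO replicate 1 and 6005 in cKO replicate 2. The value of cKO replicate 2 lay above both Ctrl libraries and that of cKO replicate 1 below both, and the cause was not tested. With 2 libraries in a group, checking for a library far from the rest of its group was not possible.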

How the results depend on the processing

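Higher median width, longer coverage, lower density and lower CpG-rich promoter coverage in cKO kept their direction under every alternative run for them, although median widths overlapped with islands of at least 2 kb. The number of islands did not: the log2 ratio of cKO over Ctrl was -0.21 (without cKO replicate 1 -0.70), and turned to 0.27 with islands of at least 2 kb and to 0.16 without cKO replicate 2. With chromosome X included this ratio was -0.44, 383 promoters and 3531 regions were lost, and 234 and 2085 were gained. Calls of loss and gain rested on single libraries. Leaving out each library in turn gave 529 to 1181 promoters lost, 408 to 1011 gained, 4303 to 11167 regions lost and 3440 to 15090 gained, the highest losses of promoters without cKO replicate 1 and the highest gains without cKO replicate 2. These are larger than the main counts because fewer libraries had to meet the rule. With islands of at least 2 kb gains exceeded losses, with 1105 regions lost and 3064 gained and 275 promoters lost and 331 gained, beside 2460, 2081, 329 and 234 with all islands. With covered length made equal 3752 were lost, 1066 gained and 149 promoters gained.

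Of region counts, 0 calls became 759 with DESeq2's Wald test and 0 to 2510 with a library left out, 2510 without cKO replicate 1. Where an arm was left with 1 library, it was assumed to vary like the others. The 3 density calls became 638 without centring (634 lower), 0 without limma's trend and 1 to 75 with a library left out, 75 without Ctrl replicate 1. With a replicate block there were 0 calls in counts, length and density. Deviations of same-numbered libraries correlated at -0.127, so the numbers were not shown to pair the libraries. The crossed block, chosen after seeing the data, gave 3 calls in counts, 0 in length and 3 in density. Leaving out islands over 500 counts per kb, also chosen after seeing the data, changed no call, and a mean of at least 50 counts removed no region. Of 52 named regions with an unadjusted p under 0.05, 0 changed direction under the scaling, test, block and left-out-replicate alternatives, 31 passed with DESeq2 and 49 without cKO replicate 1. Reads outside islands are unknown, so a loss is a loss of the call, and the self-test shows that changes of 2-fold would mostly be missed.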
